A study of Mus musculus with 2 samples.

Results

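The cells described here are tumour macrophages that carried transcripts of C1q together with Cd72, Vcam1 and Cd81. They numbered 548 of 16798 filtered barcodes, 405 in the control library and 143 in the motolimod library. They come from a droplet single-cell study of mouse tumours in which CD45-positive cells were enriched on magnetic beads after digestion with collagenase D and DNase I. One group carries only the label control. The other received motolimod, a synthetic compound that activates TLR8, a receptor for RNA fragments inside endosomes. The design text speaks of 5 biological replicates in each group, but each group has a single library (1 sample). Strain, age, tumour model, dose and time are not given in the sources used here. Whether the animals of a group were pooled is also not given. No test between groups was therefore possible and no difference was checked in replicates. The 95% intervals cover only the error of counting.

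C1q is the recognition protein of the classical complement pathway, and tissue macrophages make most of it. CD72 is an inhibitory receptor best known from B cells, where ligand binding recruits the phosphatase SHP-1 and dampens signalling. VCAM1 is an adhesion protein that holds cells bearing the integrin α4β1, and in macrophages it marks several tissue-dwelling populations such as those of the splenic red pulp. CD81 is a tetraspanin that organises receptors in the cell membrane.

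Members were chosen by their measured counts. A barcode had at least 300 genes, at least 800 unique molecular identifiers (UMIs, 1 per captured transcript molecule) and at most 10% mitochondrial UMIs. It had at least 5 UMIs of C1qa, C1qb and C1qc together, none of Cd3e, Cd3g, Csf3r or Lyve1, and fewer than 3 of Krt18 and of Mmp12. Fewer than 4 of 7 cell-cycle genes were detected. Barcodes that met all of this are called C1q macrophages here, 1450 in the control and 2076 in the motolimod library. Members also had at least 1 UMI each of Cd72, Vcam1 and Cd81, and the remaining 1045 and 1933 barcodes are the other C1q macrophages. Vcam1 was the narrowest of these steps. The step took the control library from 1070 to 424 barcodes and the motolimod library from 713 to 163. Just inside the threshold, 25.2% of control and 27.3% of motolimod members held exactly 1 Vcam1 UMI. Just outside it, 427 control and 206 motolimod barcodes failed on Vcam1 alone.

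The 2 libraries differed in depth. In the control there were 127609378 UMIs from 8099 barcodes, and with motolimod 62057685 from 10037. The filtered barcodes had medians of 14055 and 3742.5 UMIs. Member cells differed less, with medians of 16687 and 14761 UMIs and of 3663 and 3566 genes. The other C1q macrophages had medians of 10668 and 4964 UMIs. The libraries shared 113 barcode sequences, and no shared barcode was a member in both.

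The label of macrophage was checked against genes the rule did not use. Csf1r, the receptor for the macrophage growth factor CSF1, was detected in 384 of 405 control members and 138 of 143 motolimod members. Its level was 294 CPM (the gene's UMIs summed over member cells and scaled to the usual fixed total) in the control and 362 in the motolimod library. Cd68, a lysosomal membrane protein of macrophages, stood at 902 and 630 CPM. Cd3d, a part of the T cell receptor complex, was at 0.289 and 0 CPM, against 925 and 1105 in droplets that carried T cell genes. Cd3e and Cd3g of the same complex were at 0 by the rule. Fibroblast genes summed to 1.30 and 2.76 CPM. Dendritic cell genes were less uniform. The 5 genes of type 1 conventional dendritic cells summed to 141 CPM in control members and 92.4 in the other C1q macrophages. With motolimod the sums were 189 and 72.6 CPM. Among these 5, Cadm1 had the highest level, at 86.1 and 130 CPM in members, from 248 and 104 cells. The 5 genes of type 2 cells summed to 425 against 378 CPM and to 532 against 585. Most of the sum in members was Sirpa, at 374 and 500 CPM. Of the others, Cd209a was at 0.145 and 0.460 CPM, Flt3 at 0.724 and 0.460 and Ffar2 at 1.16 and 0. Clec10a was at 48.9 and 30.8 CPM. Ccr7, the lymph-node homing receptor of migratory dendritic cells, was at 38.9 CPM in the control, from 12 cells, and at 0 in the motolimod members. The defining microglial gene Tmem119 was at 5.35 and 3.68 CPM.

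The first question was how frequent these cells were in each library. Members made up 5.41% of filtered barcodes in the control library (interval 4.91 to 5.95) and 1.54% in the motolimod library (1.30 to 1.81), a ratio of 0.284 (0.233 to 0.344). Among C1q macrophages they made up 27.9% (25.6 to 30.3) and 6.89% (5.84 to 8.06), a ratio of 0.247 (0.202 to 0.299). A rule that asks for a UMI of 3 genes finds more members where cells are deeper. The share was therefore also taken within bands of UMIs per barcode. Between 10000 and 15000 UMIs it was 28.2% of 380 control and 20.8% of 279 motolimod C1q macrophages, a ratio of 0.738 with an interval from 0.527 to 1.03. From 15000 to 20000 UMIs the ratio was 0.796 (0.541 to 1.15), and at 20000 UMIs or more it was 0.915 (0.580 to 1.40). Below 5000 UMIs it was 0.0804 (0.0187 to 0.271), and from 5000 to 10000 UMIs 0.179 (0.0920 to 0.330).

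So the share in the motolimod library was far lower among shallow C1q macrophages. In each band of at least 10000 UMIs the ratio was also below 1 (0.738, 0.796 and 0.915), with an interval that included 1. These bands were not combined, so their intervals do not show that deeper cells had equal shares. With the motolimod shares of the bands weighted by the control's mix of UMI bands, the share was 20.5%, a ratio of 0.735. When barcodes of at least 3000 UMIs (6601 of 7484 control and 5406 of 9314 motolimod) were thinned to 3000 before the rule was applied, the ratio among C1q macrophages was 0.265 (0.193 to 0.359). The shallower barcodes were left out there, and the C1q macrophages numbered 2550 and 2131 because thinned cells also passed the steps that exclude cells more often. How much of the lower share goes with depth and how much with the mix of cells cannot be told apart. Droplets with neutrophil genes numbered 376 and 1470, and their part in the share of all barcodes was not tested.

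**Figure D1:**
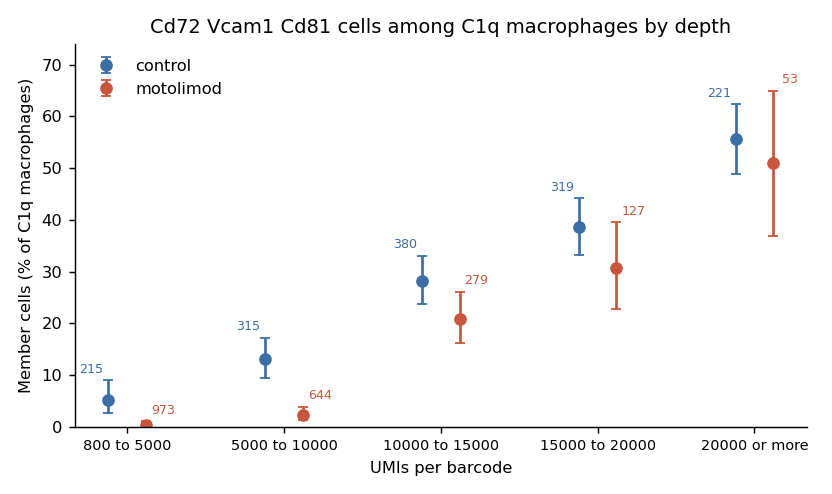
Member cells as a percentage of C1q macrophages (vertical axis) in 5 bands of UMIs per barcode (horizontal axis), control in blue and motolimod in red, with exact 95% intervals for counting error and the number of C1q macrophages above each. The share was higher in deeper bands in both libraries, from 5.12% to 55.7% in the control and from 0.411% to 50.9% with motolimod, and the intervals of the libraries overlapped in the 3 deepest bands.

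At an equal depth of 3000 UMIs Cd81 and Cd72 were more frequent in cells with a Vcam1 UMI than in cells without one, in both libraries. Cd81 had a UMI in 73.2% of the 254 control C1q macrophages with a Vcam1 UMI (67.3 to 78.6) and in 44.9% of the 1087 without one (41.9 to 47.9). In the motolimod library the shares were 48.5% of 97 cells (38.2 to 58.8) and 15.8% of 1451 cells (13.9 to 17.8). Cd72 had a UMI in 61.0% and 51.0% of these control cells and in 45.4% and 27.5% of the motolimod cells. Ly6c2, a surface protein of classical monocytes that the rule did not use, went the other way. Its share was 9.45% with Vcam1 and 30.8% without it in the control, and 8.25% and 40.9% with motolimod. Other genes outside the rule were mixed. Cbr2 was less frequent with Vcam1 (5.51% and 9.11% in the control, 12.4% and 43.5% with motolimod). Cx3cr1 was more frequent with it (14.6% and 10.2%, then 19.6% and 7.72%). Mrc1 changed sides, at 34.3% and 28.5% in the control and 42.3% and 50.7% with motolimod.

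Member cells were then set beside the other C1q macrophages. This is a description, because the rule chose the cells on their counts. Of 2636 genes with at least 50 CPM in members or others in both libraries, 4 were at least 2-fold higher in members in both libraries (0.152%) and 28 were at least 2-fold lower in both (1.06%). The 4 were Dnase1l3, Gbp2b, Mmp13 and Serpina3g. Dnase1l3, a secreted nuclease that digests extracellular chromatin, was at 85.7 CPM in control members against 33.7 in the others, and at 103 against 23.1 with motolimod. Mmp13, a collagenase, was at 125 against 48.0 CPM and at 114 against 53.8. Mmp13 was not higher in members than in every C1q macrophage, since the Mmp12-high barcodes that the rule set aside held 562 and 891 CPM. Nr1h3, the oxysterol-sensing nuclear receptor LXRα, stood just under the threshold in the control, at 146 against 75.8 CPM (1.92-fold), and at 136 against 57.2 with motolimod (2.37-fold).

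Monocyte genes formed the clearest group among those lower in members. Of the 8 listed monocyte genes with enough counts, all 8 were lower than in the other C1q macrophages in both libraries, 5 of them at least 2-fold. Over all 2636 genes, 734 were lower in both libraries, 28 of them at least 2-fold. Of 16 listed immediate early genes, 15 were lower in both, 1 of them at least 2-fold. Ly6c2 was at 109 CPM in control members and 568 in the others, and at 42.3 and 616 with motolimod. Droplets with T cell genes held 641 and 1479 CPM. Ccr2, the receptor that brings monocytes out of the bone marrow, was at 33.0 against 119 and at 27.1 against 283. Fn1, the matrix protein fibronectin, was at 22 against 129 and at 23.5 against 136. Spp1, osteopontin, was likewise lower, at 56.7 against 224 and 32.2 against 184 CPM. Saa3, an acute-phase protein, was among the 10 lowest, at 7.96 against 164 CPM and 15.2 against 283. Chil3, a chitinase-like protein, was at 13.7 against 68.0 and 7.36 against 56.1 CPM. Slfn4, a myeloid gene of the Schlafen family, was at 13.3 against 64.1 and 9.20 against 131, and S100a4, a calcium-binding protein, at 95.7 against 382 and 206 against 640. Genes shared by most macrophages differed little. Csf1r in members was 0.981 times its level in the other control cells and 0.939 times that in the other motolimod cells. Cx3cr1, the fractalkine receptor, was 1.58-fold and 2.11-fold higher.

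To separate choosing from measuring, the UMIs of each cell were divided at random, with members chosen in the first part and levels read in the second. That part held fewer UMIs, so barcodes passed the steps that exclude cells more often. It gave 412 members and 1423 others in the control library, and 120 and 2025 with motolimod. These sets were therefore not the same as those above. In the second part Vcam1 was at 304 CPM in control members and 49.0 in the others, 6.20-fold (5.55 to 6.93). With motolimod it was at 255 against 28.8, 8.87-fold (7.39 to 10.6). Cd81 was 2.04-fold and 3.34-fold higher. Cd72 was 1.28-fold and 2.06-fold higher, the smallest margin of the 3 rule genes in each library. Ly6c2 was 0.185 and 0.0894 times its level in the others. With this split 22 genes were at least 2-fold lower in both libraries, of which 21 were among the 28 above, and 2 of the 4 higher genes passed again.

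**Figure D2:**
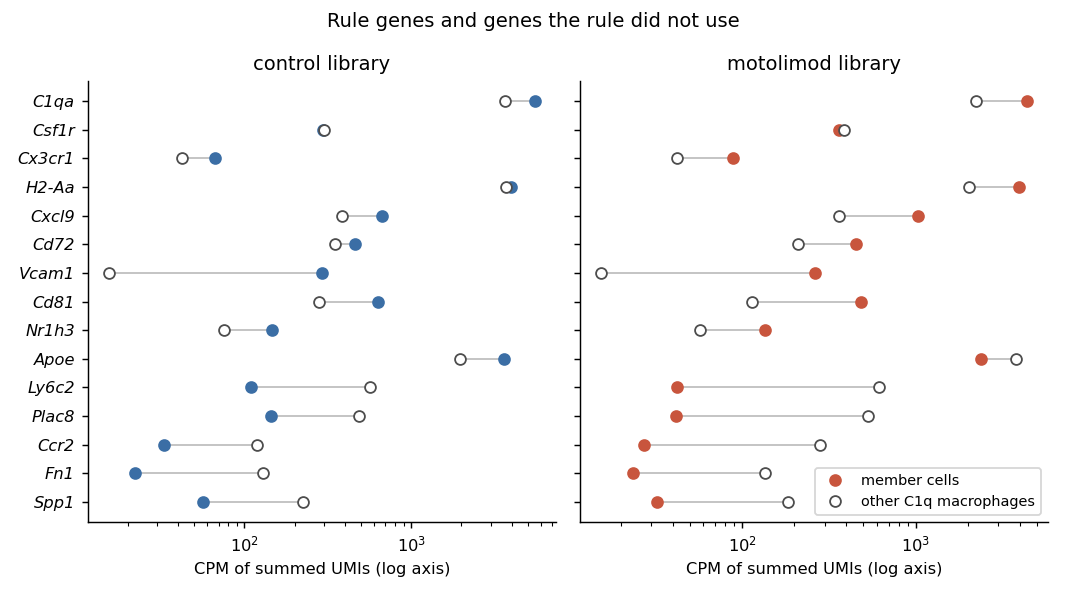
Level of 15 genes in CPM of summed UMIs (horizontal log axis) in member cells (filled points) and in other C1q macrophages (open points), control on the left and motolimod on the right, with no replicate error because each point is 1 library. Vcam1, on which members were chosen, lies at 15.4 CPM in the others and 291 in members of the control, while Ly6c2, Plac8, Ccr2, Fn1 and Spp1 lay lower in members in both panels. Apoe was higher in control members and lower in motolimod members.

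The main question was how member cells differed between the control and motolimod libraries. Most listed genes that respond to type I interferon were lower with motolimod (15 of 19 past 1.5-fold). Of the interferon gamma list 7 of 16 genes and of the NF-kB list 8 of 17 were higher past 1.5-fold, and none was lower. A gene was counted where its CPM ratio of motolimod over control reached 1.5 or fell to 1/1.5, among 5575 genes with at least 20 CPM in either library. Of these, 434 were higher (7.78%) and 205 lower (3.68%), and the median log2 ratio was 0.05. Most calls were higher with either scaling, but by how much depended on it. The share of calls that were higher was 67.9% with total UMIs and 57.5% with median-of-ratios scaling (349 higher and 258 lower).

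Type I interferons act through a receptor on nearly all cells and switch on antiviral genes by way of the transcription factor complex ISGF3. Of 22 listed genes 19 had enough counts, and 15 of the 19 were lower with motolimod and none was higher past 1.5-fold, with a median log2 ratio of -0.94. Isg15, a ubiquitin-like antiviral protein, was at 909 CPM in control members and 261 in motolimod members, a ratio of 0.287 (0.263 to 0.313). Irf7, the factor that amplifies interferon production downstream of endosomal Toll-like receptors, was at 554 and 180 CPM, a ratio of 0.325 (0.292 to 0.361). Ifit3, which belongs to a family that binds foreign RNA, was at 75.5 and 12 CPM, a ratio of 0.158 (0.102 to 0.235). Ifit2 of the same family was at 55.3 and 13.3 CPM, with a ratio of 0.241. Bst2, tetherin, which retains budding viruses, was at 928 and 522 CPM, with a ratio of 0.563.

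These control levels were not carried by a few cells. The control cell with most Isg15 UMIs held 3.84% of them and that for Irf7 1.52%. At 3000 UMIs per cell, Irf7 had a UMI in 71.6% of 401 control members and 36.9% of 141 motolimod members, and Isg15 in 69.3% and 46.8%. Droplets with T cell genes held Isg15 at 334 and 365 CPM, so the motolimod member level was below theirs. Summed over the listed genes, the median member cell held 9 type I interferon UMIs of 3000 in the control and 6 with motolimod. The cells at the 90th percentile held 20 and 12 UMIs. Zbp1, Stat2 and Ifih1 were also lower but within 1.5-fold, at ratios of 0.711, 0.680 and 0.738.

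Interferon gamma, made by T and NK cells, induces guanylate-binding proteins and immunity-related GTPases, which attack intracellular pathogens. Of 16 listed genes with enough counts, 7 were higher with motolimod and none was lower past 1.5-fold, with a median log2 ratio of 0.54. The 7 were Gbp4, Irgm2, Iigp1, Irf1, Cxcl9, Ciita and Tgtp2. Cxcl9, the chemokine that draws T cells bearing CXCR3, was at 667 CPM in control members and 1037 in motolimod members, a ratio of 1.56 (1.48 to 1.64). At 3000 UMIs per cell it had a UMI in 55.4% and 74.5% of members, against 5.19% and 0.901% of T cell droplets. Gbp4 was at 82.5 and 151 CPM, a ratio of 1.83 (1.60 to 2.10). T cell droplets, whose own cells respond to interferon, held Gbp4 at 56.7 and 107 CPM, Irgm2 at 19.7 and 33.7 and Tgtp2 at 15.5 and 28.5, so these were higher with motolimod there too. Iigp1 was at 130 and 235 CPM, with a ratio of 1.81 (1.62 to 2.02). Serpina3g, a protease inhibitor, was the only listed gene with enough counts below 1, at 235 and 192 CPM. Gbp2b, not on the list, was at 87.7 and 165 CPM, a ratio of 1.88 that came to 1.41 when members were thinned to 3000 UMIs. The related chemokine Cxcl10 was at 532 and 580 CPM, a ratio of 1.09.

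**Figure D3:**
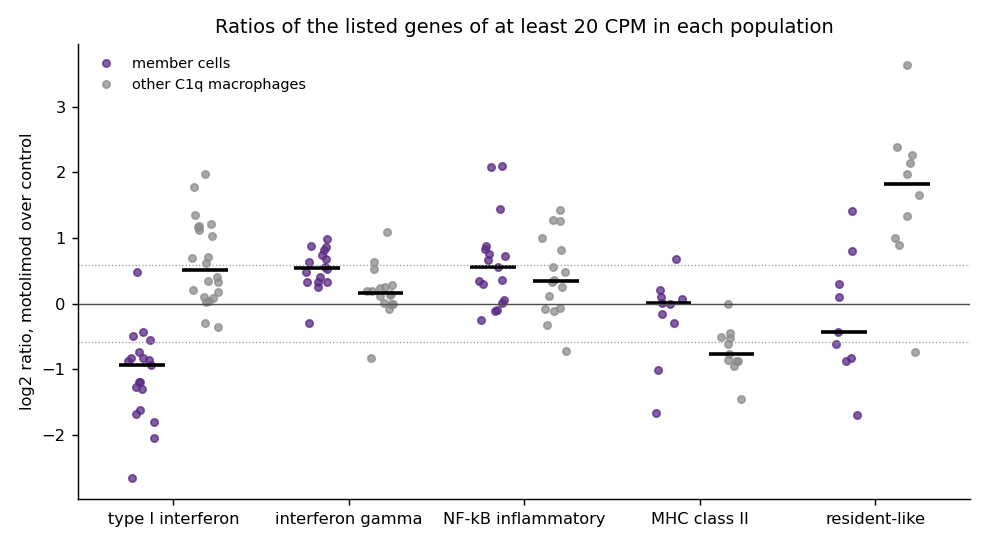
Log2 ratio of motolimod over control (vertical axis) for each listed gene of at least 20 CPM in member cells (purple) and in other C1q macrophages (grey), in 5 gene lists, with bars at the medians and dotted lines at 1.5-fold. In members the medians are -0.94 for type I interferon genes and 0.54 for interferon gamma genes, with Serpina3g the 1 interferon gamma gene below 0, while in the other C1q macrophages the type I interferon median is 0.51.

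The start-site regions of these genes are shown because both lists hold interferon targets and their medians lay on opposite sides of 0. Stretches come from RefSeq on GRCm38.p6 and span 250 bases before the transcript start to 50 after it, and 17 of 22 type I and 12 of 17 interferon gamma genes had one. They were searched on both strands for GAAANNGAAA, the core of the interferon-stimulated response element bound by ISGF3 and IRF factors, and for TTCNNNGAA, the gamma-activated site of interferon gamma targets, where N is any base. The first occurred in 11 of the 17 type I and 9 of the 12 interferon gamma genes, against 3.99% of 27025 genes in the table. The second occurred in 4 of 17 and 7 of 12, against 9.55% of all. Overlapping matches were counted once per gene. A match is a run of letters and no evidence of binding. The motif named on each line is in capitals, and a match to the other motif on the same line is left in lower case. Sequences run 5′ to 3′ on the strand of the gene, first for 3 genes that were lower with motolimod and then for 3 that were higher.
Isg15 (response element, chr4:156200850-156200921, minus strand): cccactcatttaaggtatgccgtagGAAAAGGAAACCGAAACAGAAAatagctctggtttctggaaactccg
Ifit3 (response element, chr19:34583348-34583441, plus strand): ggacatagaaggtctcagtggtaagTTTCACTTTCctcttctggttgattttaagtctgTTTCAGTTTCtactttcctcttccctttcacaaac
Rsad2 (response element, chr12:26456538-26456597, minus strand): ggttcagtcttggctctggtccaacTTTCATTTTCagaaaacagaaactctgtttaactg
Irf1 (gamma-activated site, chr11:53769899-53769957, plus strand): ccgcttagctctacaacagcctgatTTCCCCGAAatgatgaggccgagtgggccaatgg
Irgm2 (gamma-activated site, chr11:58214877-58214935, plus strand): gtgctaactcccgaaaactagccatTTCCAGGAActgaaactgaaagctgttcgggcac
Tgtp2 (response element, chr11:49064248-49064307, minus strand): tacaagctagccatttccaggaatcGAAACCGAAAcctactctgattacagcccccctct

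Isg15 held 3 overlapping matches and Ifit3 2 separate ones, read there on the opposite strand. Irf1, an interferon-induced transcription factor, had a gamma-activated site and no response element in this window. Irgm2 and Tgtp2, both immunity-related GTPases, held both motifs. Their CPM ratios were 1.67 for Irf1, 1.76 for Irgm2 and 1.97 for Tgtp2. Rsad2, viperin, had a ratio of 0.523. The response element occurred in both lists and so does not set them apart.

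The NF-kB inflammatory list gave 8 higher genes of 17 with enough counts and none lower, with a median log2 ratio of 0.56. Tnf, the cytokine that starts much of acute inflammation, was at 43.4 CPM in control members and 183 in motolimod members, a ratio of 4.22 (3.62 to 4.91). It was also higher with motolimod in the other C1q macrophages, at 80.0 and 141 CPM (1.76). The ratio was 1.67 in Mmp12-high and 2.19 in cycling C1q macrophages, and 0.690 in those with Lyve1. Tnf had a UMI in 8.73% and 27.7% of members at 3000 UMIs per cell, against 13% and 14.7% of T cell droplets, which can make Tnf themselves. Tnip3, an inhibitor of NF-kB signalling, was at 6.66 and 54.7 CPM, and T cell droplets held 10.8 and 13.3. Tnfaip2 was at 60.8 and 165 CPM (ratio 2.71) and Nos2, the inducible nitric oxide synthase, at 5.93 and 25.3 (ratio 4.26, from 18 control and 20 motolimod cells). Acod1, which makes the antimicrobial metabolite itaconate, was at 26.2 and 99.8 CPM. Il1b was not part of this pattern, at 694 and 639 CPM.

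Chemokines of neutrophils and monocytes were split. Cxcl2, a neutrophil attractant, was at 296 CPM in control members and 1329 in motolimod members, a ratio of 4.50 (4.25 to 4.76). The other C1q macrophages held more of it, 943 and 3375 CPM, and their ratio was 3.58. T cell droplets held 350 and 1045 CPM of Cxcl2, so the control members were below that level and the motolimod members a little above it. At 3000 UMIs per cell 22.9% and 47.5% of members had a Cxcl2 UMI, and 13.7% and 25.8% of T cell droplets. Ccl3 was also higher at 76.8 and 204 CPM, and Ccl4 at 488 and 850, but T cell droplets held more of both in each library (389 and 618 CPM of Ccl3, 900 and 1587 of Ccl4). Ccl8, a ligand of monocyte and T cell receptors, was lower at 1702 and 1081 CPM (0.635), as was Ccl12, a mouse CCR2 ligand, at 1071 and 624 CPM (0.583). Ccl2 was at 1168 and 1139 CPM, with a ratio of 0.975.

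RNA of neutrophils was higher in motolimod members along with these inflammatory genes, and its part in their ratios was not tested. The sum of 7 neutrophil genes was 96.8 CPM in control and 399 in motolimod members, with Csf3r at 0 by the rule, against 52232 and 61885 CPM in neutrophil droplets. Among the 10 highest ratios in members, S100a8 was at 18.1 and 171 CPM and Slpi at 14.5 and 107, both below the 279 and 124 CPM of motolimod T cell droplets. Cstdc4 and S100a9 were likewise below those droplets. A single motolimod cell held 33.9% of the S100a8 UMIs. With the barcodes of highest doublet score removed, the ratio of S100a8 came from 9.46 to 3.26 and that of Slpi from 7.40 to 4.14, and S100a9 fell short of 1.5 (1.44) with each marker at 2 UMIs or more. Gzma, a killer-cell granzyme, was at 14.6 and 96.6 CPM, but 1 motolimod cell held 96.2% of its UMIs there. In the 357 control and 87 motolimod members with no S100a8 or S100a9 UMI, a selection made after the values were seen, the ratio was 4.17 for Cxcl2, 3.82 for Tnf, 3.29 for Acod1 and 0.265 for Isg15.

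Antigen presentation genes had medians near 0 between the libraries. H2-Aa, a chain of MHC class II, which shows peptides to CD4 T cells, was at 3961 CPM in control members and 3933 in motolimod members, a ratio of 0.993 (0.969 to 1.02). Of 10 class II genes with enough counts 1 was higher and 2 were lower, with a median log2 ratio of 0.00. Ciita, the class II master regulator, was higher at 25.2 and 40.5 CPM, a ratio of 1.61 that came to 1.10 on thinning to 3000 UMIs. Cd40, the receptor for T cell help, was lower at 115 and 57.0 CPM. None of 14 class I genes passed 1.5-fold, which was near the share over all genes (7.78% higher and 3.68% lower). The other C1q macrophages held H2-Aa at 3705 and 2037 CPM. In the median member cell thinned to 3000 UMIs the class II sum was 61 and 66 UMIs, against 46 and 3 in the other C1q macrophages.

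The 3 genes that the rule asks for were within 1.5-fold between libraries. Cd72 was at 462 and 457 CPM, Vcam1 at 291 and 263 and Cd81 at 636 and 486. The level of a rule gene among members has a floor set by the rule. Of 12 genes of CD72 signalling, none passed 1.5-fold in either direction. Over all genes 7.78% were higher and 3.68% lower, so none of 12, or 1 of the 14 tetraspanins below, was near that share. Ptpn6, the phosphatase SHP-1, was at 345 and 348 CPM, the kinase Lyn at 378 and 410, and Sema4d, the CD72 ligand CD100, at 42.1 and 42.3. Of 11 integrin and adhesion genes 3 were higher: Itgb7 at 14.5 and 49.2 CPM, Itgal at 48.9 and 100 and Itgam at 230 and 373. The ratio of Itgam, 1.62, came to 1.47 on thinning to 3000 UMIs. T cell droplets held more Itgb7 (107 and 191 CPM) and Itgal (127 and 252 CPM) than members, and less Itgam (46.5 and 43.7 CPM). Itga4 and Itgb1, which form the VCAM1 receptor α4β1, were at 51.2 and 65.3 and at 147 and 191 CPM, within 1.5-fold. Among 14 tetraspanins Tspan13 alone passed, lower at 53.3 and 25.8 CPM, and its ratio of 0.484 came to 0.695 in members of 5000 to 20000 UMIs. Of 17 core macrophage genes and 21 lysosomal genes, none passed.

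Genes of alternative activation and residence were mixed. Mgl2, a galactose-binding lectin, was at 121 and 46.4 CPM (0.384), and the eosinophil attractant Ccl24 at 78.6 and 23.5 (0.298), though 1 of 8 motolimod cells with Ccl24 held 47.1% of its UMIs. Arg1, arginase, was higher at 165 and 266 CPM (1.61), and Cd274, the checkpoint ligand PD-L1, at 122 and 185 (1.52). Retnla stood at 58.0 CPM in the control and 0 with motolimod, but all 401 control UMIs lay in 1 cell. Residence genes gave 2 higher and 4 lower of 9, with a median log2 ratio of -0.43 that was 0.29 among genes of at least 100 CPM. Over all genes 7.78% were higher and 3.68% lower. F13a1, a coagulation factor of macrophages, was at 83.8 and 25.8 CPM (0.307), and Stab1, a scavenger receptor, at 111 and 194 (1.74). Apoe, the lipid carrier, was at 3601 and 2383 CPM (0.662). Monocyte genes were also lower with motolimod, 3 of 7 past 1.5-fold, against 3.68% of all genes. Ly6c2 had a ratio of 0.387, which came to 0.689 on thinning to 3000 UMIs and was above 1 in the members of fewest UMIs (39.1 and 69.4 CPM), and Plac8 one of 0.288.

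Tlr8, the mouse gene for TLR8, was at 9.70 CPM in control and 14.7 in motolimod members. Whether motolimod acted through the mouse receptor in these cells was not tested. Tlr7, a related RNA sensor, was at 18.1 and 16.1 CPM. All of these were under the 20 CPM minimum set for counting a ratio. Tlr2 and Tlr4, which sense bacterial products at the cell surface, were higher at 69.6 and 109 and at 15.3 and 30.8 CPM, and the ratio of Tlr2, 1.57, came to 1.19 on thinning. Myd88, the adaptor of most Toll-like receptors, was at 107 and 97.5 CPM. Pf4, the chemokine platelet factor 4 that the study names, was at 402 CPM in control members (interval 387 to 417) and 521 in motolimod members (492 to 553), a ratio of 1.30 (1.21 to 1.39) that did not reach 1.5. In the other C1q macrophages it was at 513 and 3135 CPM, a ratio of 6.11. The platelet genes Gp9, Gp1ba and Tubb1 were at 0 in members of both libraries, and T cell droplets held Pf4 at 96.6 and 243 CPM.

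**Figure D4:**
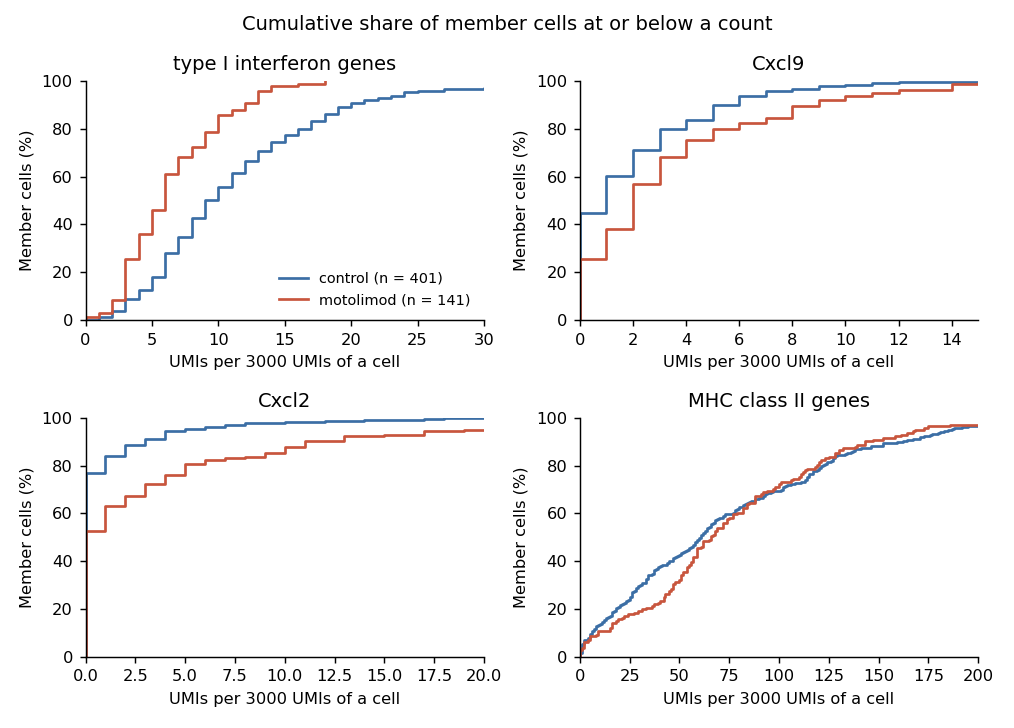
Percentage of member cells (vertical axis) at or below a number of UMIs (horizontal axis) after each cell was thinned to 3000 UMIs, control in blue (401 cells) and motolimod in red (141 cells), for type I interferon genes, Cxcl9, Cxcl2 and MHC class II genes. The motolimod curve lies to the left for type I interferon genes, with medians of 6 and 9 UMIs, and below the control for Cxcl9 and Cxcl2, where 25.5% and 52.5% of motolimod cells held none against 44.6% and 77.1% of control cells.

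The ratios were also read within member cells of like depth. Members were divided by UMIs per cell into 3 bands with shared limits. Type I interferon genes summed to 3250 and 2152 CPM in the lowest band, 3720 and 1933 in the middle and 4279 and 2184 in the highest. Cxcl9 was higher with motolimod in each band, at 558 and 1172, 685 and 803, and 694 and 1168 CPM. Tnf was at 50.5 and 231, 58.7 and 162, and 31.5 and 166 CPM. Members were also split by Vcam1 counts. In cells with 1 Vcam1 UMI Isg15 was at 714 and 262 CPM, and in those with 5 or more at 1037 and 260 CPM. Cxcl2 was at 403 and 1942 CPM in cells with 1 Vcam1 UMI and at 319 and 667 in those with 5 or more. S100a8 was lower with motolimod in the latter, at 33.9 and 11.8 CPM, and higher in the cells with fewer Vcam1 UMIs.

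The other C1q macrophages had a type I interferon median on the other side of 0. Over all genes, 701 of 5617 were higher and 498 lower past 1.5-fold in them, against 434 and 205 of 5575 in members. The type I interferon median log2 ratio was 0.51 over 22 genes, 11 of them higher and none lower past 1.5-fold, and Ifit3 was at 50.9 and 110 CPM. The genes with the highest counts did not share this direction. Isg15 was at 963 and 788 CPM there (0.818) and Irf7 at 555 and 434 (0.783), lower with motolimod as in members but within 1.5-fold. The median cell of 3000 UMIs held 10 and 11 type I interferon UMIs. The difference between the populations has no test. Cycling C1q macrophages, which the rule had set aside, resembled members in these values. In them 12 of 18 type I interferon genes were lower, with a median log2 ratio of -0.84, and 8 of 16 interferon gamma genes were higher, with a median of 0.57. Over all genes in the cycling cells, 246 of 5761 were higher and 116 lower. Isg15 was at 703 and 239 CPM and Cxcl9 at 415 and 668 CPM there. In Mmp12-high C1q macrophages the type I median was -0.12 and the interferon gamma median 0.49. Of the cycling cells, 324 of 767 control and 66 of 257 motolimod barcodes failed the rule on the cycling step alone and so carried Cd72, Vcam1 and Cd81.

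**Figure D5:**
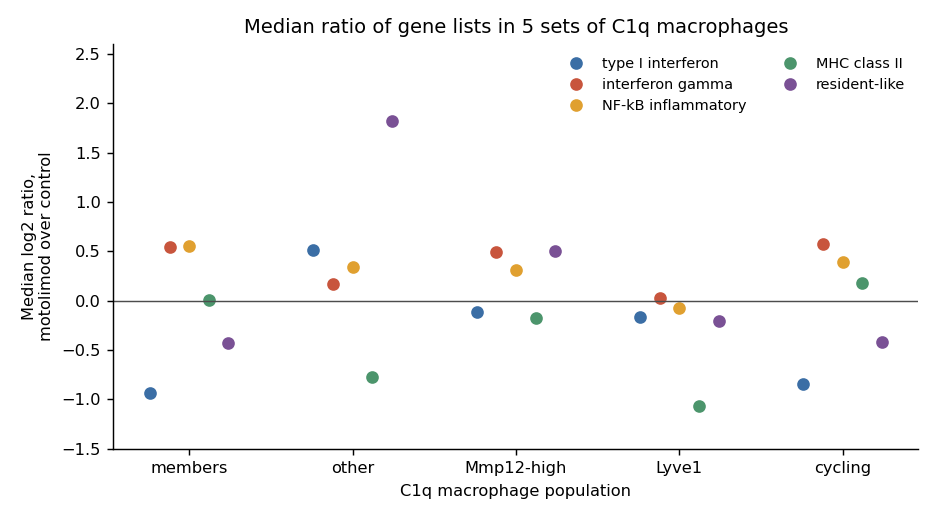
Median log2 ratio of motolimod over control (vertical axis) for 5 gene lists in members and in 4 other sets of C1q macrophages (horizontal axis), each from 1 library per group and without error bars. Members and cycling cells share a low type I interferon median (-0.94 and -0.84) beside a raised interferon gamma median (0.54 and 0.57), while the resident-like list reaches 1.82 in the other C1q macrophages.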

How the data were processed

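Raw UMI counts per gene and barcode were used as deposited, without normalization, per the file headers. The counting tool was Cell Ranger with mm10. The submitters' processing notes give version 5.0.1 and the deposited file headers 7.1.0, and whether intron reads were counted is not given in the sources used here. The tables list 32285 genes, and 38 symbols carried by more than 1 identifier were not used.

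Counts were summed over the cells of a population and library and scaled to CPM. Levels have exact Poisson, shares exact Clopper-Pearson and ratios exact conditional binomial intervals (95%), for counting error only. Droplets with T cell or neutrophil genes gave the background. Each cell was thinned to 3000 UMIs for shares of cells with a UMI, leaving out 4 control and 2 motolimod members. Doublets were kept in the main values. As an alternative the barcodes with the highest Scrublet scores (0.8% per 1000 barcodes) were removed, 448 and 694 in all and 17 and 10 among members. The ratio and its interval were run on simulated sums drawn with counting error only. That simulation held no unevenness between cells, so it cannot say how the intervals behave where few cells hold most UMIs.

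Members and the 28 gene lists were chosen with earlier results of these data known. Genes were named from the rule genes, the 10 highest and 10 lowest ratios in each comparison among genes of at least 50 CPM, and up to 4 genes of each list with the largest ratio. Further genes of a list, and Mmp13 in other populations, were named after their values were seen. A gene of the type I interferon list is not reported here. Alternatives covered scaling, cell weights, depth, minimum level, doublets, cell filter and rule. Work used Python 3.11.15, numpy 2.4.6, scipy 1.17.1, pandas 2.3.3, scanpy 1.11.5 and matplotlib 3.10.9.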

Additional observations from a re-analysis of the deposited data

Results flagged for a closer look

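Several values lay on opposite sides of 1 in member cells and in the other C1q macrophages. The difference between the populations was not tested in any of them, and the other C1q macrophages of the motolimod library were shallower. The type I interferon genes had a median log2 ratio of -0.94 in members and 0.51 in the others. The resident-like genes had medians of -0.43 and 1.82, and the member median was 0.29 among genes of at least 100 CPM. Ifit3 had a ratio of 0.158 in members and 2.17 in the others, Ifit2 of 0.241 and 2.04, and F13a1 of 0.307 and 1.86.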

How the results depend on the processing

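No paired analysis was possible because each group has 1 library. The ratio of member shares stayed below 1 under every alternative run. Over filtered barcodes it moved to 0.460 between 5000 and 20000 UMIs, 0.395 with a stricter cell filter and 0.20 with the Mmp12, Lyve1 and cycling steps dropped. Among C1q macrophages it moved to 0.402 between 5000 and 20000 UMIs and to 0.191 with only the 3 markers thinned. Counts of genes between libraries moved from 434 higher and 205 lower to 925 and 606 on thinning members, 1929 and 1115 with no minimum level, and 88 and 41 at 100 CPM. The 4 genes higher in members became 7 on thinning and 2 with the split of UMIs. Of 64 named genes past 1.5-fold, 50 stayed past it under every alternative that gave a value, and 1, Gzma, reversed, to 0.0711 with each marker at 2 UMIs or more. Medians over alternatives ran from -1.09 to -0.76 for type I interferon, 0.49 to 0.63 for interferon gamma and 0.35 to 0.64 for NF-kB genes. The resident-like median was 0.29 at 100 CPM. The causes were not tested. The alternative without the top cell and those without steps, with markers alone thinned or without S100a8 and S100a9 were chosen after seeing the data.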
